A study of Mus musculus with 8 samples.

Results

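The genes described here encode the machinery of oxidative phosphorylation, taken from the count table as all rows whose symbol starts with Nduf, Uqcr, Cox4i, Cox5, Cox6, Cox7, Cox8, Atp5, mt-Nd, mt-Co, mt-Cyt or mt-Atp, together with Cyc1, Sdha, Sdhb, Sdhc and Sdhd. The rule used symbols and no measured value, and it left out 7 rows with -ps in the symbol. It gave 107 of the 52459 genes in the table: 94 encoded in the nucleus and 13 in the mitochondrial genome. Of the nuclear members, 83 are subunits of complexes I to V and 11 are assembly or associated factors.

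RNA was sequenced from lung tumour nodules of mice of a genetically engineered lung cancer model on a mixed background. Each of 4 groups held 2 libraries: vehicle, JQ1 (a small molecule that blocks the acetyl-lysine pockets of BET bromodomain proteins), an antibody against the immune checkpoint receptor PD-1, and both agents together, called the combination here. All groups share this model, with exact alleles, Cre driver, doses, treatment times and ages not given in the sources used here. Nothing in the labels says that libraries of 1 group were made from different mice. In 3 of the 4 groups the 2 libraries differed in sex by their counts of Xist, and so came from different mice, while for the vehicle this is not known and the spread between its libraries may be technical.

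Oxidative phosphorylation couples electron flow to ATP synthesis in the inner mitochondrial membrane. Complex I (NADH dehydrogenase) and complex II (succinate dehydrogenase) pass electrons to ubiquinone, complex III passes them on to cytochrome c, and complex IV (cytochrome c oxidase) passes them to oxygen. Protons pumped by complexes I, III and IV return through complex V, the ATP synthase. Complexes I, III, IV and V are built from subunits of both genomes, while every subunit of complex II is nuclear. The mitochondrial genome is transcribed as long polycistronic RNAs from both strands by its own polymerase and is present in many copies per cell.

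The shallowest library, combination replicate 1, held 2719816 counts, and the deepest, vehicle replicate 2, held 15224108. Ribosomal RNA took 23.4% ± 1.38 of counts in the vehicle, 32.1% ± 5.13 with JQ1, 24.4% ± 0.506 with anti-PD-1 and 49.9% ± 4.67 with the combination (mean ± SD, n = 2 each), so its share did not overlap between the combination and any other group and cannot be told apart from that treatment. Genes annotated as protein-coding held 73.4% of counts in the vehicle and 44.9% with the combination. Xist counts of 1187 to 6590 marked combination replicate 1, JQ1 replicate 1 and anti-PD-1 replicate 2 as female, and the other 5 libraries were male. Of all genes, 14085 passed the minimum on counts and were tested. The library kit enriches coding regions with sequence-specific probes, and the sources used here do not list the mouse genes those probes match.

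Counts along the mitochondrial genome were uneven, and the uneven stretch has a nuclear copy. In GRCm38, the stretch of chrM that holds mt-Co2, mt-Atp6, mt-Co3, mt-Nd3 and mt-Nd4l is also found on chromosome 1, between positions 24611535 and 24616197, as annotated pseudogenes. The first 90 coding bases of mt-Co2, the cytochrome c oxidase subunit that accepts electrons from cytochrome c, lie at chrM:7013-7102 on the plus strand. The same bases of its copy Gm28661 lie at chr1:24615476-24615565 on the minus strand, and both are shown because they have 0 mismatches and so cannot be assigned by sequence.
mt-Co2: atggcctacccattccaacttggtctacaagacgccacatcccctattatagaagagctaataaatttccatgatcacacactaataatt
Gm28661: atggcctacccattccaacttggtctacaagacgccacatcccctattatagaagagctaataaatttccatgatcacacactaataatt

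All 5 genes aligned to their copy over at least 98.3% of their length with 100% identity. Over the 8 libraries together they held 91 counts for mt-Co2, 90 for mt-Atp6, 65 for mt-Co3, 5 for mt-Nd3 and 6 for mt-Nd4l. The short mt-Atp8, which lies inside the copied stretch but has no annotated copy of its own, held 30 counts. By contrast mt-Nd1, mt-Nd2, mt-Nd5, mt-Nd6 and mt-Cytb, for which no copy was annotated, held between 4860 and 37522 counts each. Only part of mt-Co1 and mt-Nd4 was copied: mt-Co1 aligned over 31.3% of its length to Gm29216 and held 60648 counts, and mt-Nd4 aligned over 63.6% to Gm28439 and held 14423. The 7 copies on chromosome 1 held 1150 counts in all. The sources used here do not say how reads that match more than 1 place were treated. Levels of the 5 copied genes and of mt-Atp8 are therefore not read as the levels of their transcripts.

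**Figure D1:**
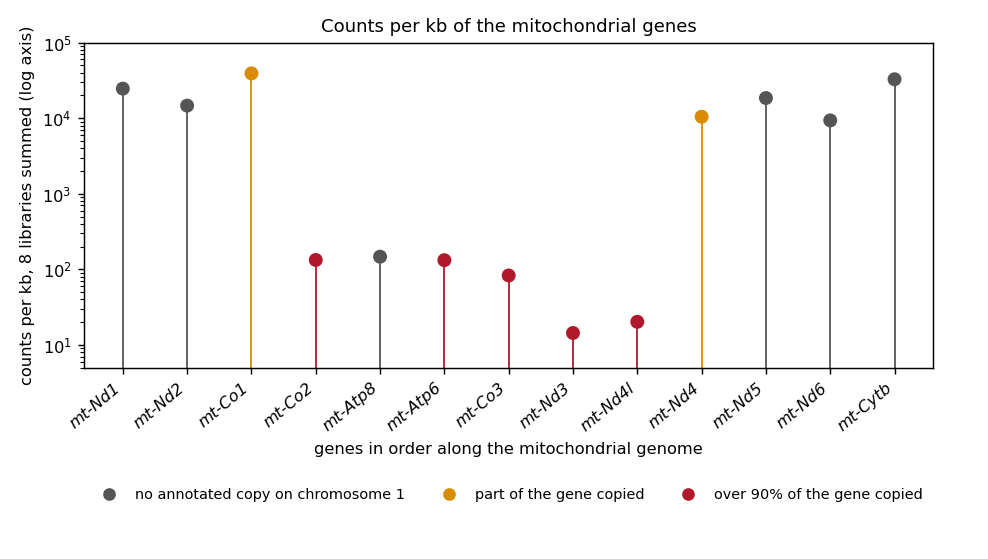
Counts per kb summed over the 8 libraries (log axis) for the 13 protein-coding genes of the mitochondrial genome, in genome order; colour gives how much of the gene has an annotated copy on chromosome 1. The 5 genes in red, copied almost whole, and mt-Atp8 lie at or below 147 counts per kb, and the other 7 genes at 9364 or more.

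Of the 107 members, 95 passed the minimum on counts: 85 nuclear and 10 mitochondrial. The 12 that did not were mt-Atp8, mt-Nd3, mt-Nd4l, Ndufs5, Ndufaf2, Ndufa4l2, Cox6a2, Cox6b2, Cox7a1, Cox7b2, Cox8b and Cox8c. Among those tested, Cox4i2, mt-Atp6, mt-Co2 and mt-Co3 did not reach the minimum in the vehicle libraries, and mt-Co2 and mt-Co3 reached it only in JQ1 and combination libraries.

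The mitochondrial members took a larger share of counts in both groups that received JQ1. They took 0.172% and 0.153% of all counts in the vehicle libraries and 0.203% and 0.1998% with anti-PD-1. With JQ1 they took 0.290% and 0.346%, and with the combination 0.292% and 0.337%. The ranges of the JQ1-treated groups did not overlap those of the other groups. On this scale the combination and JQ1 alone overlapped. As a share of the counts of protein-coding genes, which leaves out ribosomal RNA, the values were 0.222% ± 0.0222 in the vehicle, 0.4995% ± 0.0213 with JQ1, 0.278% ± 0.00194 with anti-PD-1 and 0.706% ± 0.131 with the combination (SD, n = 2 each). The combination was thus 1.93 times the vehicle as a share of all counts and 3.18 times as a share of protein-coding counts.

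mt-Co1, the catalytic core of complex IV, had the highest CPM per kb of exon among the mitochondrial members (541 CPM per kb averaged over the libraries). Since the probe matches are not known, this ranks counts and not transcripts. CPM are counts divided by library size, on the usual per-million scale, with library sizes adjusted by edgeR's TMM factors, which set the bulk of genes level between libraries. mt-Co1 was at 531 and 420.0 CPM in the vehicle, 835 and 962 with JQ1, 553 and 546 with anti-PD-1, and 963 and 1871 with the combination. Every JQ1-treated library lay above every library without JQ1, and the 2 combination libraries differed from each other by more than the 2 JQ1 libraries did. The log2 fold change of the combination against the vehicle was 1.58 (SE 0.33, edgeR quasi-likelihood test, Benjamini-Hochberg adjusted p = 0.0327), and that of JQ1 alone against the vehicle was 0.92 (SE 0.32, adjusted p = 0.443).

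mt-Cytb, the cytochrome b of complex III and its one mitochondrially encoded subunit, showed the same order with less spread. Its CPM were 307 and 273 in the vehicle, 586 and 528 with JQ1, 391 and 412 with anti-PD-1, and 722 and 888 with the combination. No pair of groups overlapped for this gene. It rose 2.78-fold in the combination against the vehicle (log2 1.48, SE 0.24, adjusted p = 0.0212) and 2.01-fold against anti-PD-1 alone (log2 1.004, SE 0.24, adjusted p = 0.0474).

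The complex I members of the mitochondrial genome encode the membrane arm of the enzyme, through which protons are pumped. mt-Nd1 was at 202 and 149 CPM in the vehicle, 343 and 408 with JQ1, 213 and 223 with anti-PD-1, and 418 and 657 with the combination. It rose 3.06-fold in the combination against the vehicle (log2 1.62, SE 0.29, adjusted p = 0.0261). mt-Nd2, mt-Nd4 and mt-Nd5 rose in the same comparison by 1.41, 1.27 and 1.37 on the log2 scale (adjusted p of 0.0273, 0.0276 and 0.0327). For these 3 genes too the combination libraries lay above both vehicle libraries and above both anti-PD-1 libraries.

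mt-Nd6 is the one protein-coding gene on the other strand of the mitochondrial genome, from 13552 to 14070 of chrM, and its end overlaps the end of mt-Nd5. The sources used here do not state whether counting used strand, so part of its counts may come from the opposite strand. Its CPM were 46.8 and 38.6 in the vehicle, 59.9 and 98.4 with JQ1, 44.9 and 36.6 with anti-PD-1, and 120.4 and 91.5 with the combination. The anti-PD-1 and vehicle libraries overlapped, as did the combination and JQ1 libraries. It rose by 1.31 against the vehicle (SE 0.31, adjusted p = 0.0439) and by 1.37 against anti-PD-1 (SE 0.31, adjusted p = 0.0438).

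**Figure D2:**
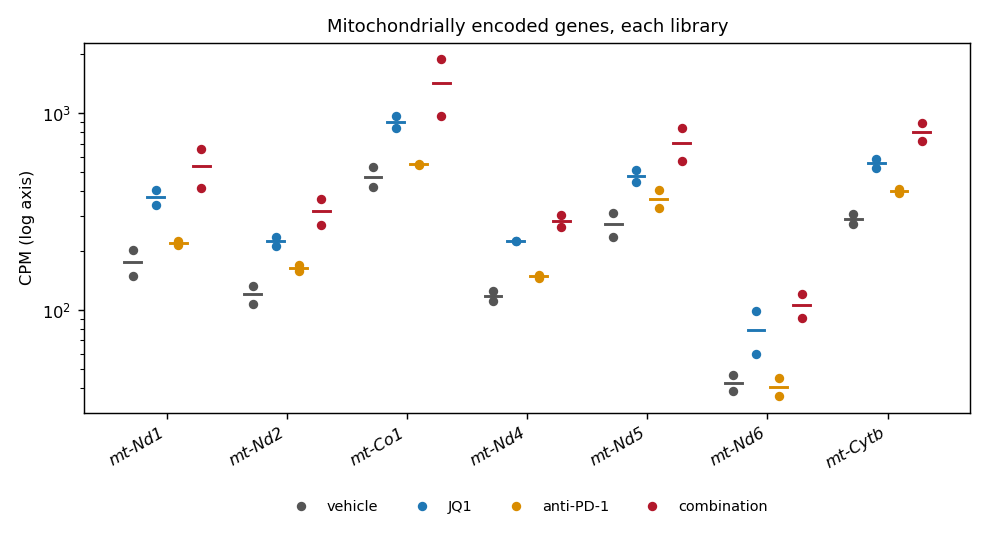
CPM (log axis) of the 7 mitochondrial members that held 4860 counts or more, in each library (points) with the group mean (bar), coloured by treatment. JQ1 and combination libraries lie above vehicle and anti-PD-1 libraries for every gene shown.

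Among the genes of the copied stretch, mt-Co3, mt-Co2 and mt-Atp6 were tested on few counts. mt-Co3 was called, at a log2 fold change of 3.18 (SE 0.78, adjusted p = 0.0474) for the combination against the vehicle, from 4 and 4 counts in the vehicle libraries and 5 and 17 with the combination. mt-Co2 had a value of 1.62 (adjusted p = 0.162) and mt-Atp6 of 1.71 (adjusted p = 0.176). The 5 tested pseudogenes of the stretch on chromosome 1 had a median of 1.71 in the same comparison and none was called, with Gm28661 at 1.61 (adjusted p = 0.0887).

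The 2 ribosomal RNA genes of the mitochondrial genome are no members but come from the same primary transcript as most of them. In the combination against the vehicle, mt-Rnr1 rose by 1.56 (SE 0.27, adjusted p = 0.0226) and mt-Rnr2 by 1.51 (SE 0.27, adjusted p = 0.0261) on the log2 scale. The members' counts per 100 counts of these 2 genes were 6.43 and 6.38 in the vehicle, 6.36 and 7.26 with JQ1, 7.66 and 6.97 with anti-PD-1, and 5.72 and 6.58 with the combination. On this ratio the combination and vehicle libraries overlapped. The levels of whole mitochondria, of mitochondrial DNA and of transcripts per mitochondrion were not measured. In bulk tissue, a change in the cells present and a change in RNA per cell cannot be told apart.

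Across all complexes, the members called by edgeR with the minimum on counts rose and none fell. Under other settings Ndufs1, Cox7a2l and Atp5g1 were called as lower in some comparisons, with the values given at each gene. Calls given without a tool or setting are those of edgeR with the minimum on counts. In the combination against the vehicle 11 of 95 members were called, and all 11 rose, beside 4.8% of all genes tested called in either direction and 2.44% called as higher. Of the 10 mitochondrial members, 8 were among them (mt-Nd1, mt-Nd2, mt-Nd4, mt-Nd5, mt-Nd6, mt-Cytb, mt-Co1 and mt-Co3), and 3 of the 85 nuclear members (Cox6a1, Cox7a2 and Atp5f1), a nuclear share of 3.53% that is near the background. mt-Co3 passed the minimum through JQ1 and combination libraries, where it is high, so its call is not read. Of the 7 tested mitochondrial members outside the copied stretch, a division made after the values were seen, all 7 were called, with a median log2 fold change of 1.41. In 60 members both combination libraries lay above both vehicle libraries, and in 10 below, where 29.5% and 29.1% of all genes tested did so. The median log2 fold change was 1.53 for the 10 tested mitochondrial members, 0.96 for the nuclear members and 0.07 for all genes tested. Without a minimum on counts, the medians were 1.48 over 13 mitochondrial and 0.86 over 91 nuclear members. No member was called without vehicle replicate 1, vehicle replicate 2 or combination replicate 2, where 7 to 19 of all genes tested were called. Without combination replicate 1, the shallowest library, 27 members and 7.4% of all genes were called.

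For JQ1 alone against the vehicle 0 of 95 members were called, as were 0% of all genes tested by edgeR. At an unadjusted p under 0.05 there were 22 members, 8 of them mitochondrial, beside 10.1% of all genes tested. DESeq2 and limma voom also called 0 members, beside 0.325% and 0% of all genes. The medians were 0.92 for the mitochondrial and 0.50 for the nuclear members, beside 0.07 for all genes. All 10 tested mitochondrial members and 66 of 85 nuclear members had a positive value. Among the former, mt-Co2 and mt-Co3 passed the minimum only through JQ1 and combination libraries, and mt-Atp6 without the vehicle libraries. Their values are not read, though they enter the mitochondrial counts and median above. The 7 tested mitochondrial members outside the copied stretch had a median of 0.92. In 56 members both JQ1 libraries lay above both vehicle libraries, and in 8 below, where 26.3% and 22.9% of all genes tested did so.

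For anti-PD-1 against the vehicle 0 of 95 members were called by edgeR, as were 0% of all genes. No member had an unadjusted p under 0.05, beside 1.97% of all genes tested. DESeq2 and limma voom called 0 members too, beside 0.0416% and 0% of all genes. The medians were 0.38 for the mitochondrial, 0.03 for the nuclear members and −0.00 for all genes. Of the 10 tested mitochondrial members, 8 had both anti-PD-1 libraries above both vehicle libraries, and none below. These 10 include mt-Co2, mt-Co3 and mt-Atp6, which passed the minimum without the vehicle libraries and whose values are not read. The 7 tested mitochondrial members outside the copied stretch had a median of 0.325. Over all 95 members 17 lay above in this way and 7 below, where 14.4% and 16% of all genes tested did so. Without any 1 library the median of all tested mitochondrial members stayed between 0.24 and 0.55.

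The combination against anti-PD-1 gave 6 called members, all of which rose, beside 4.23% of all genes called and 2.15% called as higher. They were mt-Nd1, mt-Nd6, mt-Cytb and mt-Co1 of the mitochondrial genome, with Cox6a1 and Cox8a of complex IV. The nuclear share called was 2.35%, not above the 4.23% of all genes. Both combination libraries lay above both anti-PD-1 libraries in 54 members and below in 10, beside 27.9% and 26.8% of all genes tested. No member was called when any 1 of the vehicle or anti-PD-1 libraries or combination replicate 2 was left out, where 0.0199% to 0.587% of all genes were called. Without combination replicate 1, 19 members and 6.42% of all genes were called. The combination against JQ1 alone gave 0 called members by edgeR, beside 0.0213% of all genes. In that comparison 7 of 95 members had an unadjusted p under 0.05, beside 14.1% of all genes. DESeq2 and limma voom called 0 members, beside 1.58% and 0.0284% of all genes. The medians were 0.53 and 0.21 for mitochondrial and nuclear members, and 0.52 for the 7 tested mitochondrial members outside the copied stretch. The combination libraries lay above both JQ1 libraries in 26 members and below in 5, beside 19.7% and 21.3% of all genes. The comparisons above share the vehicle or combination libraries and are not independent of each other.

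The effect of JQ1 averaged over both backgrounds (with and without anti-PD-1) uses all 8 libraries. It called 16 members, all of which rose, beside 8.28% of all genes called and 4.22% called as higher. All 4 libraries with JQ1 lay above all 4 without it in 37 members and below in 4, beside 10.2% and 9.35% of all genes tested. The 7 mitochondrial members outside the copied stretch were among the 16, with mt-Co3, whose call is not read for the reason given above, and 8 nuclear members: Ndufb5 of complex I, Sdhc of complex II, Uqcr10 and Uqcrq of complex III, Cox6a1 and Cox8a of complex IV, and Atp5f1 and Atp5j2 of complex V. The nuclear share called was 9.41%, near the 8.28% of all genes. No member was called when any 1 of the vehicle or anti-PD-1 libraries was left out, where 0.112% to 0.948% of all genes were called. Without JQ1 replicate 1, JQ1 replicate 2 or combination replicate 2, 7 to 8 members and 2.83% to 3.29% of all genes were called, and without combination replicate 1, 35 members and 11.4%. A test of whether the effect of JQ1 differed with and without anti-PD-1 called 0 of 95 members, with no unadjusted p under 0.05. The smallest adjusted p of that test was 0.776. The share of all genes called or under that limit was not counted, so this is not read as particular to the members.

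**Figure D3:**
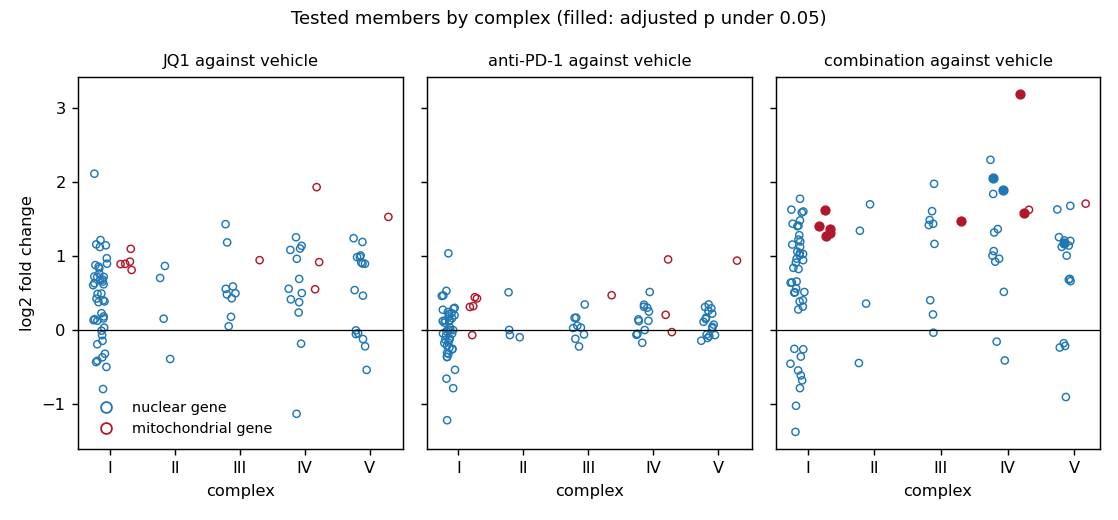
Log2 fold change against the vehicle of each tested member, by complex, for JQ1, anti-PD-1 and the combination; blue is nuclear, red mitochondrial, and filled points have an adjusted p under 0.05. Anti-PD-1 values of the nuclear members scatter around 0, and 8 of the 10 mitochondrial ones are positive. The 10 include mt-Co2, mt-Co3 and mt-Atp6, whose values are not read. In the combination panel the mitochondrial members all lie above 1 while the nuclear ones range from −1.37 to 2.30.

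Complex I held 48 tested members. Its 7 nuclear core subunits, which carry the flavin and most iron-sulfur clusters, had a median of −0.26 in the combination against the vehicle, with 5 of 7 negative. Its 28 tested nuclear accessory subunits had a median of 0.95, with 26 positive. The division into core and accessory subunits was made after the values were seen. Ndufs1, the nuclear member of the complex with the highest CPM, which holds iron-sulfur clusters at the NADH end, was at 135 and 152 CPM in the vehicle, 109.6 and 94.1 with JQ1, 137 and 126 with anti-PD-1, and 76.2 and 90.6 with the combination. Both JQ1 groups lay below both groups without JQ1, at a log2 fold change of −0.57 for JQ1 over both backgrounds that was not called by edgeR with the minimum on counts (adjusted p = 0.0635). It was called as lower with no minimum (−0.64, adjusted p = 0.0400) and by DESeq2 (−0.63, adjusted p = 0.0211), and DESeq2 also called it in the combination against the vehicle (−0.84, adjusted p = 0.0359).

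Ndufb5, an accessory subunit of the membrane arm, went the other way. It was at 2.60 and 3.84 CPM in the vehicle, 8.18 and 5.93 with JQ1, 4.96 and 2.91 with anti-PD-1, and 10.5 and 9.23 with the combination, and it rose for JQ1 over both backgrounds (log2 1.21, SE 0.31, adjusted p = 0.0416). Ndufb5 was the one nuclear member of complex I called by edgeR, with the minimum on counts, in any of the 6 comparisons. Its 8 tested assembly factors, which help build the enzyme and leave it, had values from −1.37 to 1.62 in the combination against the vehicle, with 5 of 8 positive.

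Complex II is entirely nuclear, and 3 of its 4 subunits had positive values for JQ1 over both backgrounds. Sdha, the flavoprotein that oxidises succinate, was at 148 and 146 CPM in the vehicle, 95.1 and 129 with JQ1, 154 and 141 with anti-PD-1, and 129 and 88.2 with the combination. Its value was −0.42 for JQ1 over both backgrounds, which was not called. Sdhc, which anchors the enzyme in the membrane, was at 5.88 and 6.25 CPM in the vehicle, 12.5 and 9.68 with JQ1, 6.78 and 4.79 with anti-PD-1, and 11.4 and 27.2 with the combination. All 4 libraries with JQ1 lay above all 4 without it, and Sdhc rose for JQ1 over both backgrounds (log2 1.31, SE 0.31, adjusted p = 0.0353). Sdhd, the other anchor, had a value of 0.77 and Sdhb, the iron-sulfur subunit, of 0.30, neither of them called. Summed over the 4 genes the level was 172 ± 1.01 CPM in the vehicle and 159 ± 1.43 with the combination (SD, n = 2), since Sdha made up most of it.

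In complex III the nuclear members had a median of 1.42 in the combination against the vehicle, with 8 of 9 positive and none called. The nuclear medians of complexes I, II, IV and V were 0.82, 0.85, 1.07 and 1.06. Uqcr10, a small subunit, was at 2.52 and 2.07 CPM in the vehicle, 7.24 and 3.23 with JQ1, 2.17 and 3.005 with anti-PD-1, and 7.58 and 10.2 with the combination. Uqcrq, another small subunit, was at 1.604 and 1.84, then 5.77 and 3.57, 0.838 and 2.54, and 4.21 and 6.10 CPM in the same order of groups. In both genes every library with JQ1 lay above every library without it, and both rose for JQ1 over both backgrounds, by 1.49 (adjusted p = 0.0345) and 1.54 (adjusted p = 0.0466). The structural core proteins Uqcrc1 and Uqcrc2 had values of 0.02 and −0.00 in that comparison. Uqcrfs1, the Rieske iron-sulfur protein, had a value of 0.89 (adjusted p = 0.0897), and Cyc1, the cytochrome c1 subunit, of 1.095, not called.

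In the combination against the vehicle, the largest nuclear value was in complex IV. Cox6a1, a regulatory subunit in its broadly expressed form (chromosome 5, 115345642 to 115348981, minus strand), was at 9.32 and 9.01 CPM in the vehicle, 22.3 and 17.0 with JQ1, 10.6 and 7.70 with anti-PD-1, and 24.8 and 50.1 with the combination. The libraries with JQ1 all lay above those without. It rose 4.13-fold in the combination against the vehicle (log2 2.05, SE 0.39, adjusted p = 0.0297) and 4.12-fold against anti-PD-1 (log2 2.04, SE 0.39, adjusted p = 0.0335). It was the one nuclear member called in all 3 comparisons that called any.

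Cox7a2, another small subunit, was at 3.36 and 4.70 CPM in the vehicle, 7.76 and 8.02 with JQ1, 7.47 and 4.04 with anti-PD-1, and 9.68 and 19.6 with the combination, and rose in the combination against the vehicle (log2 1.88, SE 0.47, adjusted p = 0.0480). Cox8a, the smallest subunit, was at 9.24 and 5.74 CPM in the vehicle, 16.8 and 7.41 with JQ1, 5.80 and 7.51 with anti-PD-1, and 19.4 and 33.5 with the combination. Its JQ1 and vehicle libraries overlapped. It rose against anti-PD-1 (log2 2.01, SE 0.48, adjusted p = 0.0473), and against the vehicle its value was 1.84 (adjusted p = 0.0529). Cox6c had the largest nuclear value, 2.30 (adjusted p = 0.0605), and is named for that, after its values were seen.

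Several complex IV subunits exist as a broad form and a form of limited tissue range, and the limited forms held few or no counts. Whether the kit's probes match these genes is not known, so low counts are not read as absence. Of the forms known from heart and skeletal muscle, Cox6a2 held 17 counts over all libraries, Cox7a1 held 3 and Cox8b 0. Of the forms best known from testis, Cox6b2 held 32 counts and Cox7b2 and Cox8c held 0. For a gene with 0 of 81677522 counts, the limit of 3 counts allows up to 0.0367 CPM without TMM factors, and this covers counting error only. Cox4i2, a form known from lung and from responses to oxygen, held 93 counts, and its partner Cox4i1 held 2272. Ndufa4l2, a paralogue induced by hypoxia, held 39 counts beside 1495 for Ndufa4. In each of these pairs the broad form held the larger count.

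Cox7a2l, which helps join complexes III and IV into supercomplexes, is named because its vehicle libraries lay far apart. It was at 73.5 and 28.7 CPM in the vehicle, 19.0 and 27.7 with JQ1, 68.9 and 58.0 with anti-PD-1, and 34.1 and 42.5 with the combination. For JQ1 over both backgrounds its value was −0.92, which was not called by edgeR with the minimum on counts (adjusted p = 0.0720). It was called as lower by edgeR with no minimum (−0.99, adjusted p = 0.0013) and by DESeq2 (−0.98, adjusted p = 0.0141).

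Complex V held the 3 nuclear members with the highest CPM per kb of exon: Atp5b at 94.98, Atp5g3 at 92.1 and Atp5a1 at 52.1. The median of the nuclear members with a length was 6.17, and this too ranks counts and not transcripts. Atp5b, the catalytic beta subunit, was at 454 and 357 CPM in the vehicle, 408 and 290.0 with JQ1, 463 and 531 with anti-PD-1, and 262 and 455 with the combination. Both anti-PD-1 libraries lay above all others and the other 3 groups overlapped, and its value was −0.18 for the combination against the vehicle, not called by edgeR. Atp5f1, the b subunit of the peripheral stalk that holds the catalytic head still (chromosome 3, 105942698 to 105960099, minus strand), was at 21.5 and 18.6 CPM in the vehicle, 36.3 and 38.4 with JQ1, 23.5 and 24.7 with anti-PD-1, and 38.7 and 51.6 with the combination. No pair of groups overlapped, and it rose 2.26-fold in the combination against the vehicle (log2 1.17, SE 0.28, adjusted p = 0.0433).

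Atp5j2, the small f subunit of the membrane part, was at 5.12 and 5.51 CPM in the vehicle, 14.8 and 10.4 with JQ1, 5.17 and 4.88 with anti-PD-1, and 7.58 and 25.4 with the combination, and it rose for JQ1 over both backgrounds (log2 1.498, SE 0.35, adjusted p = 0.0350). By position in the enzyme, and grouped after the values were seen, the 4 stalk genes had a median of 1.15 in the combination against the vehicle, with all 4 positive. The 3 genes of the rotating c ring (Atp5g1, Atp5g2 and Atp5g3) had a median of −0.23, with all 3 negative and none called by edgeR with the minimum on counts. Atp5g1 was at 76.4 and 56.3 CPM in the vehicle and at 18.9 and 50.8 with the combination. With no minimum it was called as lower by edgeR in that comparison (−0.9995, adjusted p = 0.0387), against anti-PD-1 (−1.04, adjusted p = 0.0308) and for JQ1 over both backgrounds (−0.80, adjusted p = 0.0111). DESeq2 called it as lower in the last of these (−0.80, adjusted p = 0.0468), as did edgeR without combination replicate 2 (−1.21, adjusted p = 0.0469). The 3 c-ring genes encode the same mature protein, and reads of their shared coding part may have been split between them.

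**Figure D4:**
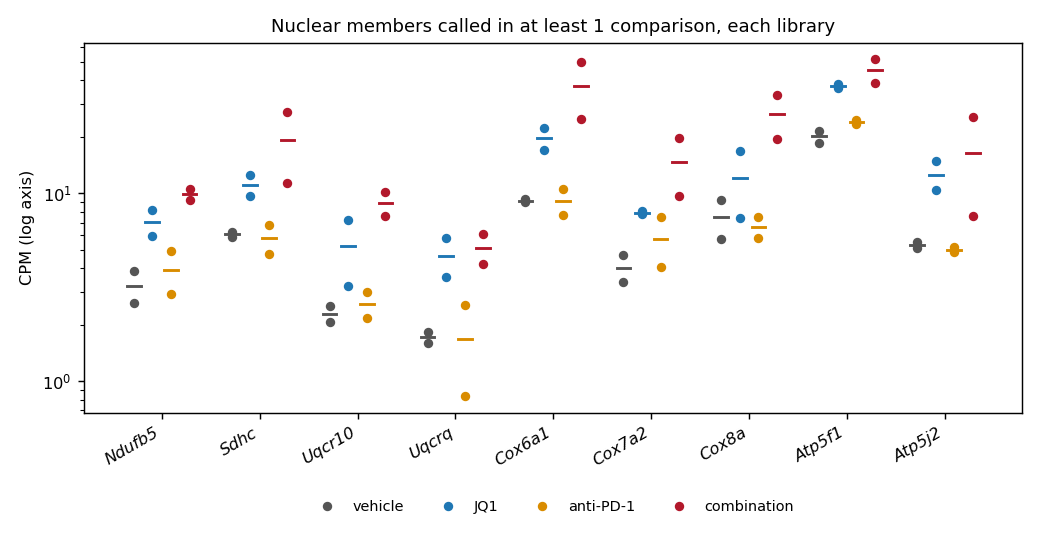
CPM (log axis) of the 9 nuclear members called in at least 1 comparison, in each library (points) with the group mean (bar), coloured by treatment. Combination libraries differ from each other by up to several fold, and in Cox8a the JQ1 libraries overlap the vehicle libraries.

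Nuclear members of low and of high level mostly had values of different sign. The division at 50 CPM was made after the values were seen. Of the 75 tested nuclear members with a mean under 50 CPM, 66 had a positive value in the combination against the vehicle, with a median of 1.04. Of the 10 members at 50 CPM or more (among them Atp5b, Atp5g3, Atp5a1, Sdha, Ndufs1, Ndufs3, Atp5g1, Cox5a and Ndufs4), 1 had a positive value, Atp5a1, and the median was −0.40. All genes tested were divided the same way in weaker form: the 11577 genes under 50 CPM had a median of 0.23 with 58.7% positive, and the 2508 genes at 50 CPM or more had a median of −0.44 with 23.3% positive. The high members thus lay close to other genes of their level, and the low members lay above theirs. Across 84 nuclear members with an annotated length, Spearman's rho between the value and the total exon length was −0.41, and across the 13813 tested genes with a length it was −0.09. These coefficients describe genes measured in the same libraries, which are not independent points.

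Since a few high members made up most of the counts, sums and medians of the nuclear members differ. Summed CPM of the 94 nuclear members were 2209 and 1959 in the vehicle, 2382 and 1762 with JQ1, 2177 and 2329 with anti-PD-1, and 1808 and 2836 with the combination. The 4 groups overlapped. As a share of all counts the nuclear members were at 0.229% and 0.224% in the vehicle and 0.158% and 0.1905% with the combination, so the direction of the sum depends on the scale. As a share of protein-coding counts the sum was 1.27 times the vehicle with the combination. The median over the 85 tested nuclear members, set against the vehicle mean, was 0.65 and 0.22 in the JQ1 libraries and 0.32 and 1.16 in the combination libraries on the log2 scale, and the mitochondrial median was 0.92 and 0.96, then 1.22 and 1.61. The combination libraries therefore differed more in the nuclear than in the mitochondrial members.

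**Figure D5:**
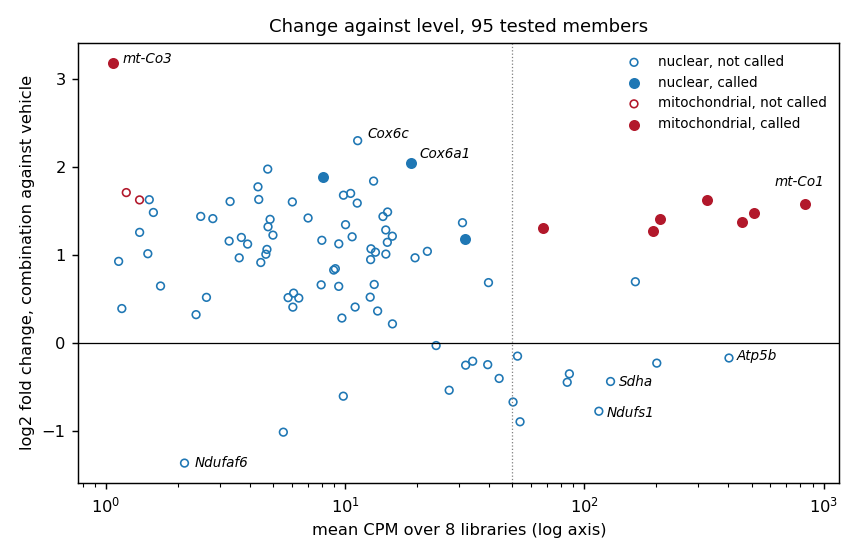
Log2 fold change of the combination against the vehicle for the 95 tested members, against their mean CPM (log axis); the dotted line marks 50 CPM, and filled points have an adjusted p under 0.05. To the right of the line 1 of 10 nuclear members lies above 0, while all mitochondrial members do.

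The ribosomal RNA share moved with these results. It includes mt-Rnr1 and mt-Rnr2, which together took 2.54% of counts in the vehicle and 5.11% with the combination. With that share as a term in the fit, no member was called in any comparison, and of all 14085 genes 2 were called in the combination against the vehicle, 1 against anti-PD-1 and 4 for JQ1 over both backgrounds. Under this term the nuclear median of the combination against the vehicle was −1.81 and the mitochondrial median 0.63. With sex as a term, 7 members were called in the combination against the vehicle, 1 in the combination against anti-PD-1 and 12 for JQ1 over both backgrounds, beside 2.41%, 1.51% and 6.23% of all genes tested. With ribosomal RNA and mitochondrial genes taken out before scaling, the nuclear median was 0.94, close to its value with them.

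Many promoters of nuclear oxidative phosphorylation genes carry sites for a few ubiquitous activators, among them NRF1, the ETS factor GABP, the estrogen-related receptors and YY1. RefSeq promoters (GRCm38.p6, 250 bases before to 50 after the start) were found for 77 of the 94 nuclear members, in 83 windows. Each was searched as 7 letters on either strand. The NRF1 motif GCGCATG was in 18.1% of member windows and 3.91% of all 32851 windows. The ETS motif CCGGAAG was in 21.7% and 8.86%, the estrogen-related receptor motif TGACCTT in 9.64% and 4.72%, and the YY1 motif AAGATGG in 16.9% and 6.34%. A match is a run of letters, not a bound site. Of the 7 called nuclear genes with a window, Cox6a1 held the NRF1 and ETS motifs, Cox8a the ETS motif, and Atp5f1 and Atp5j2 the YY1 motif, while none held that of the estrogen-related receptors. The windows of Cox6a1 and Cox8a are shown, since they are the nuclear genes called in the combination against anti-PD-1, with the motifs in capitals. The window of Cox6a1 (chr5:115348909-115349208, minus strand) holds overlapping NRF1 motifs at bases 89 and 92, a match on each strand, and the ETS motif, on the other strand, at base 235. The window of Cox8a (chr19:7217567-7217866, minus strand) holds the ETS motif at bases 246 and 283, both on the other strand.
Cox6a1: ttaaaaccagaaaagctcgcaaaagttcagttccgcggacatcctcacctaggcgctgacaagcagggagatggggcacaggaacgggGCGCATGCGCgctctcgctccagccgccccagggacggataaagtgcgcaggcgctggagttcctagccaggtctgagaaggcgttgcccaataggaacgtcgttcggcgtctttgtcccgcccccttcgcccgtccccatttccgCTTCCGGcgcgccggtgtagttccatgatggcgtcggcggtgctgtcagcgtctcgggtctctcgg
Cox8a: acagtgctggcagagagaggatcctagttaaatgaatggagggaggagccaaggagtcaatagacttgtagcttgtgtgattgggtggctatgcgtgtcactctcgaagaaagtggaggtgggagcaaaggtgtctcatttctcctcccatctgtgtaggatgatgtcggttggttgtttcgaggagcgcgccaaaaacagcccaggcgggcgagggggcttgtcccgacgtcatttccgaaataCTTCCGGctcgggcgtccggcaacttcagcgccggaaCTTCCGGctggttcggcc

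Other genes that serve the respiratory chain were read beside the members. Of all genes tested, 2.44% were called as higher in the combination against the vehicle. Of 40 tested assembly factors and carriers outside the symbol rule, 1 rose and none fell in the combination against the vehicle, with a median of 0.60. The gene that rose was Acad9, a complex I assembly factor (log2 1.49, SE 0.35, adjusted p = 0.0419). Of 76 tested mitochondrial ribosomal proteins, which build the ribosomes that translate the 13 mitochondrial messages, 2 rose and none fell (Mrps23 by 2.53 and Mrps17 by 2.03), with a median of 0.66. For JQ1 over both backgrounds 6 of the 76 rose and none fell, and of the 40 assembly factors 4 rose and 1 fell. Beside these, 8.28% of all genes tested were called in either direction and 4.22% as higher.

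Genes that replicate and transcribe mitochondrial DNA were not called: 0 of 23 in the combination against the vehicle by edgeR, with a median of 0.29. Of all genes tested, 4.8% were called. Tfam, which packages and activates mitochondrial DNA, had a value of 1.14 (adjusted p = 0.183) in that comparison. Of 18 tested genes of the tricarboxylic acid cycle and pyruvate dehydrogenase, which feed electrons to the chain, 0 were called, with a median of 0.18. Of 14 tested nuclear regulators 0 were called, with a median of −0.23. Ppargc1a, a coactivator of mitochondrial biogenesis, had a value of 0.71 (adjusted p = 0.453), and its relative Pprc1 of −1.52 (adjusted p = 0.0565). For JQ1 alone against the vehicle Ppargc1a had a value of the other sign, −1.60 (edgeR adjusted p = 0.452). In the combination against JQ1 its value was 2.31 (edgeR adjusted p = 0.175).

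Cell type markers moved in some of the same comparisons, and their part in the members' values was not tested. Beside the marker counts, 4.8% of all genes tested were called in the combination against the vehicle, 2.44% as higher. In the combination against the vehicle 2 of 8 tested striated muscle markers, of 20 in the list, fell: the myosin genes Myh6 and Myh7, by 2.18 and 2.33 on the log2 scale (edgeR adjusted p of 0.0279 and 0.0178). The summed level of the list was 3866 to 5380 CPM in the vehicle, 2409 to 3754 with JQ1, 3292 to 4607 with anti-PD-1 and 672 to 1227 with the combination. Myh7 alone was at 4817 and 3458 CPM in the vehicle, while the muscle genes Myl2 and Nppa had 0 counts in every library and Mb had 0 in the vehicle. Of 10 alveolar type 2 markers 1 rose and 2 fell, and of 10 endothelial markers 2 rose. Of 9 airway markers 1 rose, and of 9 fibroblast markers 2 rose and 1 fell. The summed airway list was at 21.0 to 49.3 CPM in the vehicle and 178 to 488 with JQ1. It was at 59.3 to 137 CPM with anti-PD-1 and 291 to 617 with the combination. In this sum every library with JQ1 thus lay above every library without it. Muc5b and Scgb1a1 made up most of the sum in the libraries with JQ1, and neither gene alone was divided so. The endothelial and neutrophil sums were divided as the airway sum was, and the fibroblast sum in the opposite way. Neutrophil sums were low, at 1.32 to 11.0 CPM. Of 9 airway values 7 were positive in the combination against the vehicle, and of 9 fibroblast values 3. None of 14 macrophage, 6 alveolar type 1, 5 erythroid, 4 neutrophil and 1 lymphocyte marker tested was called in the combination against the vehicle. For JQ1 over both backgrounds 1 of the 4 neutrophil markers rose, beside 4.22% of all genes tested called as higher. No brown fat marker passed the minimum on counts, and Ucp1, which defines that tissue, had 0 counts.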

How the data were processed

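The authors deposited raw counts, whole numbers for each gene symbol in 8 libraries. STAR, featureCounts, bcl2fastq and DESeq2 are named with builds mm10 and GRCm38, per the submitters' processing notes. Annotation, strand use and treatment of reads matching several places: not given in the sources used here. A second table, of normalized values, was not used.

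Groups came from the treatment labels, and replicates were numbered in accession order, which pairs nothing. No 2 libraries agreed within sampling noise (chi-square over its degrees of freedom at least 19.5). Counts of genes kept by filterByExpr were tested with edgeR 4.0.16 in R 4.3.3 (TMM factors, robust quasi-likelihood fit, all 8 libraries in 1 fit, 4 residual degrees of freedom, biological coefficient of variation 0.332), with Benjamini-Hochberg adjustment over the 14085 genes tested and calls at 0.05. Only calls are worded as "rose" or "fell". A prior count of 0.125 entered the log2 fold changes, and CPM are scaled by TMM factors. The fit was tested on simulated data. Alternatives were other scaling factors, other minimums on counts, DESeq2 1.42.0, limma 3.58.1 voom, fits of the compared libraries alone, terms for sex and ribosomal RNA share, removal of ribosomal RNA and mitochondrial genes, and each library left out.

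Members were matched to GENCODE M21 on GRCm38 (106 of 107), with 1-based coordinates. Complexes were assigned by textbook role: Ndufa4 and Ndufa4l2 count under complex IV, Atp5sl under complex I. Members and lists were chosen with earlier results of these data known. Genes named are the mitochondrial members, up to 10 called members with the smallest p per comparison, paired forms of complex IV subunits, per complex the 2 nuclear members with the smallest p and the one with the highest CPM, complex II, and up to 3 genes per other list; others are said to be chosen after their values were seen. Some items are not reported here.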

Additional observations from a re-analysis of the deposited data

How the results depend on the processing

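No paired analysis was possible because the labels give no replicate numbers. Counts of members called were 11 (combination against vehicle), 6 (combination against anti-PD-1) and 16 (JQ1 over both backgrounds). They became 24, 18 and 32 with no minimum on counts, beside 7.54%, 7.27% and 9.56% of all genes tested, and 21, 14 and 28 with DESeq2, beside 6.3%, 6.03% and 8.17%. A mean count of at least 50 gave 13 in the combination against anti-PD-1, beside 7.64% of all genes tested. No minimum gave 1 for JQ1 against vehicle, beside 0.946%. Fits of the compared libraries alone gave 2 and 0 in the first pair, beside 1.88% and 0.446%. They could not be made for JQ1 over both backgrounds, which uses every group. The sex term gave 7 and 1, beside 2.41% and 1.51%. The ribosomal RNA term gave 0, 0 and 0, beside 0.0142%, 0.0071% and 0.0284%. It moved the nuclear medians to −0.35 (JQ1 against vehicle), −1.81 (combination against vehicle), −1.37 (against JQ1), −1.81 (against anti-PD-1) and −0.99 (JQ1 over both backgrounds), and the mitochondrial medians to 0.63 (combination against vehicle), −0.057 (against JQ1), 0.27 (against anti-PD-1) and 0.50 (JQ1 over both backgrounds). The mitochondrial median against anti-PD-1 was 0.91 with no minimum and 0.93 with DESeq2. Of the called members named, signs turned under that term alone: Cox6a1 to −0.45 and −0.37 in the combination against vehicle and anti-PD-1 and −0.036 for JQ1 over both backgrounds, mt-Co1 to −0.071 and Cox8a to −1.98 against anti-PD-1, and Cox8a to −1.36, Uqcr10 to −0.69, Sdhc to −0.46, Atp5j2 to −0.99 and Uqcrq to −0.073 for JQ1 over both backgrounds. The cause was not tested. The share differs between groups, so changes with the share and changes with treatment cannot be told apart.

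Leaving out 1 library gave 0 to 27 calls in the combination against vehicle, 0 to 19 against anti-PD-1, 0 to 35 for JQ1 over both backgrounds and 0 to 0 in the other comparisons. Nuclear medians ranged from 0.22 to 0.69 (JQ1 against vehicle), −0.04 to 0.09 (anti-PD-1 against vehicle), 0.34 to 1.30 (combination against vehicle), −0.22 to 0.56 (against JQ1), 0.30 to 1.12 (against anti-PD-1) and 0.44 to 0.91 (JQ1 over both backgrounds). Mitochondrial medians ranged from 0.79 to 1.03, 0.24 to 0.55, 1.21 to 1.66, 0.24 to 0.70, 0.81 to 1.26 and 0.88 to 1.18 in the same order. With 2 libraries a group and 2719816 counts in the shallowest, members of few counts have wide errors, and a member not called is not shown to be level.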
